A study of Mus musculus with 12 samples.

Results

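Crabp2 and Insig1 are 2 of the 734 endogenous genes counted by the nCounter Myeloid Innate Immunity Panel in mouse mast cells, and they were selected by their rows in the count table as the retinoid gene and the sterol gene that stood out in earlier results of these data. Crabp2 was chosen by its response to IgE and antigen, where it had the smallest p-value in both genotypes, and Insig1 by its lower level in resting Mettl3 KO cells, so those differences are described here without a test. Both passed the filter on low counts, as did 545 of the 734 genes.

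CRABP2 is a small cytosolic protein that binds retinoic acid and carries it to retinoic acid receptors in the nucleus, where target genes are switched on. INSIG1 sits in the membrane of the endoplasmic reticulum, where it holds back the sterol sensor SCAP and the transcription factor SREBP when sterols are plentiful and helps to remove the rate-limiting enzyme of cholesterol synthesis. Its own gene is a target of SREBP, so its mRNA is widely used as a readout of SREBP activity.

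The cells were bone marrow-derived mast cells (BMMCs), grown from the marrow of C57BL/6 mice of 6 to 8 weeks by culture for at least 4 weeks in IL-3. In all 4 groups Cas9 and a repair template had been used to place a ZsGreen reporter, a polyadenylation signal and a stop cassette in a gene, and ZsGreen-positive cells were sorted as pools and not as clones. In c-Kit KO cells, the edited control, the cassette went into exon 2 of Kit, the stem cell factor receptor, and in Mettl3 KO cells it went into exon 1 of Mettl3, the catalytic subunit of the m6A mRNA methyltransferase. Cells of each genotype were kept at rest or exposed for 4 h to complexes of IgE with its antigen, which cross-link the high affinity IgE receptor, giving 3 libraries in each of the 4 groups and 12 in all. No unedited cells were part of these libraries, so both genotypes share the reporter, the transfection and the sort. In a difference between the genotypes, effects of the Mettl3 edit and of the Kit edit therefore cannot be told apart.

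The guides that define the groups are shown because every comparison between genotypes rests on them, 5′ to 3′ with the protospacer in lower case and its PAM in capitals. Each protospacer had 1 match on its chromosome in GRCm39.
Kit, 5′ guide: agtcgggatcaatgcacgtcAGG
Kit, 3′ guide: aaagccgaggccactcgcacGGG
Mettl3, 5′ guide: ggacacgtggagctctatccAGG
Mettl3, 3′ guide: gatggggtaaccaacaatcgAGG
The Kit guides matched chr5:75767786-75767805 on the minus strand and chr5:75767877-75767896 on the plus strand, both in exon 2 of transcript Kit-204. The Mettl3 guides matched chr14:52542420-52542439 on the minus strand, in exon 1 of Mettl3-201, and chr14:52542216-52542235 on the plus strand, in intron 1. The panel has no Mettl3 probe, and its Kit probe starts at base 4275 of the mRNA while exon 2 covers bases 204 to 476 of the 5263 bases of Kit-204. In c-Kit KO cells Kit had mean normalized counts of 2513 at rest and 1170 after stimulation. In Mettl3 KO cells the means were 3016 and 1722, and the genotype difference passed in neither condition by edgeR (adjusted p = 0.997 and 0.469). The probe lies past the cassette, and whether these counts came from edited alleles was not tested. Neither edit is therefore checked here, and groups are named as labelled.

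Total counts over the endogenous probes ranged from 504238 to 737910 per library. Counts were divided by each library's housekeeping factor to give normalized counts, and a probe was called above background when its raw count exceeded the mean of the library's 8 negative control probes by 2 SD, a limit of 13.1 to 39.2 counts. All 11 mast cell markers on the fixed list were above that limit in 12 of 12 libraries, with Cpa3, a granule carboxypeptidase, the most abundant at a mean of 144900 normalized counts. By contrast, 7 of 10 macrophage, 7 of 7 neutrophil, 3 of 4 eosinophil, 4 of 5 dendritic cell and 6 of 7 stromal cell markers were above it in no library. Replicates of a group differed by more than counting noise, with chi-square per degree of freedom from 31.4 to 241, so no library was a copy of another in its group. Stimulated Mettl3 KO library 3 carries the number 5 in the study's supplementary copy of the counts, and both c-Kit KO libraries of replicate 1 had low positive controls, with geometric means of 738 and 768 against 1194 to 1706 in the other 10, so the main results are also given without them.

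Crabp2 lies on the plus strand at chr3:87855973-87860683 (GRCm39), and its probe starts at base 275 of the mRNA. In resting c-Kit KO cells the raw counts were 2, 7 and 6, and in resting Mettl3 KO cells 4, 10 and 9. All 6 were below the background limit of their own library, and 6 to 8 of the 8 negative control probes gave more counts than Crabp2 in each. Thus Crabp2 was not detectable at this depth in resting cells of either genotype, and no fold between the resting groups is given.

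In stimulated c-Kit KO cells Crabp2 gave 434.5, 254.2 and 835.2 normalized counts, and in stimulated Mettl3 KO cells 632.4, 580.8 and 703.6. Each of the 6 stimulated libraries was above its own background limit, by 7.5-fold at the lowest and 34.1-fold at the highest, whereas no resting library was. The stimulated and resting groups did not overlap in either genotype. The fitted log2 response was 6.51 (SE 0.59) in c-Kit KO cells and 6.24 (SE 0.57) in Mettl3 KO cells, but because the resting counts are background these sizes depend on how low counts are treated, and with all counts below 20 set to 20 they were 4.48 and 4.88. Among the 545 genes Crabp2 ranked 1 by p-value and 3 by fold in each genotype, which is what it was chosen by. In bulk RNA of this kind, more cells with Crabp2 mRNA and more Crabp2 mRNA per cell cannot be told apart.

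**Figure D1:**
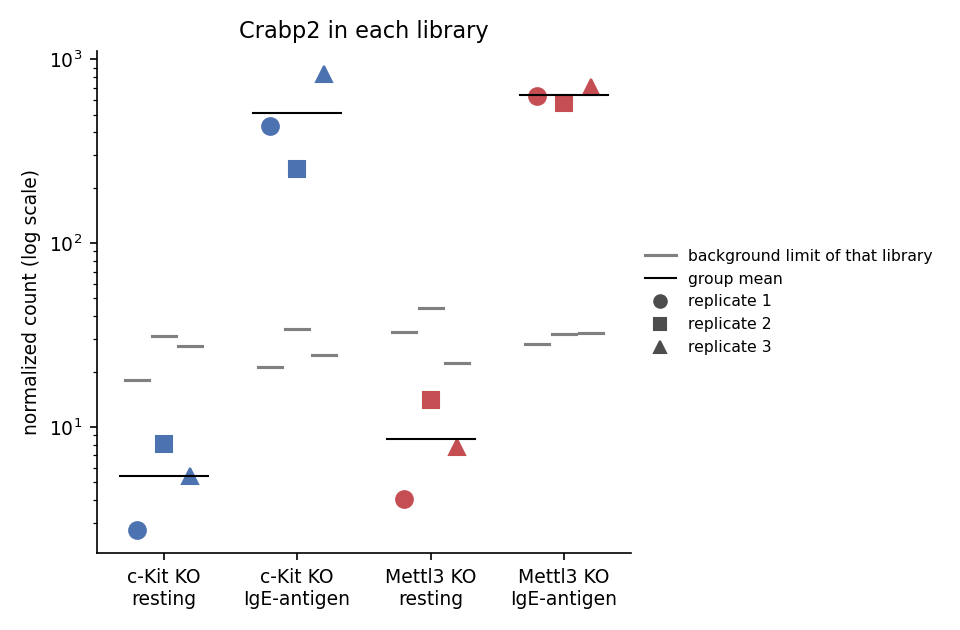
Normalized counts of Crabp2 (log axis) in the 12 libraries, 3 per group, with replicate numbers as symbols, black lines for group means and grey ticks for the background limit of each library. All 6 resting libraries lie below their limit and all 6 stimulated ones lie above it, between 254.2 and 835.2.

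The question whether the stimulated level of Crabp2 differs between Mettl3 KO and c-Kit KO cells was not used to choose the gene. The mean was 508 ± 297.4 normalized counts in c-Kit KO cells and 638.9 ± 61.68 in Mettl3 KO cells (SD, n = 3 each), and the groups overlapped. The fitted difference, Mettl3 KO over c-Kit KO, was 0.33 on the log2 scale (SE 0.43, 95% confidence interval -0.61 to 1.27), or 1.26-fold with an interval of 0.654 to 2.42. It did not pass the edgeR quasi-likelihood test (adjusted p = 0.79 over 545 genes), and the interval leaves room for a change of up to 2.42-fold upward. Within same-numbered replicates the difference on the log2(normalized count + 20) scale was 0.521, 1.13 and -0.241, higher in 2 of 3 pairs. In this comparison 5 of 545 genes (0.917%) passed, all higher in Mettl3 KO cells, and Crabp2 was not among them. The median over all 545 genes was 0.204 here, so Crabp2 stood 0.126 above it, and with TMM scaling over the endogenous probes the median was 0.0218 and Crabp2 0.0862 above it. With scaling on the positive controls the difference of Crabp2 turned to -0.0393, which was 0.0381 above a median of -0.0774.

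The responses of Crabp2 in the 2 genotypes differed by -0.27 on the log2 scale (SE 0.73, 95% confidence interval -1.85 to 1.32). Because all resting counts were below background, this value does not show whether the genotypes responded alike, and no p-value is given. Its sign turned to 0.391 when counts below 20 were set to 20. It also turned when a whole replicate or a single library was left out. It was 0.194 without replicate 3 of all groups and 0.00294 without resting c-Kit KO replicate 1. It was 0.296 without stimulated c-Kit KO replicate 3 and 0.198 without resting Mettl3 KO replicate 2. Without stimulated c-Kit KO replicate 2, which had the lowest stimulated level, the fitted difference between stimulated genotypes was 0.00861, and without stimulated c-Kit KO replicate 3, which had the highest, it was 0.892 (adjusted p = 0.372 by edgeR). It was 0.255 without stimulated Mettl3 KO replicate 3 and 0.229 without stimulated c-Kit KO replicate 1, the libraries singled out above.

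By likeness of pattern, measured as Pearson's r of log2(normalized count + 20) over the 12 libraries, the genes closest to Crabp2 were Nfil3 (0.988), Tnfsf4 (0.982), Il1b (0.98), Il1a (0.978) and Ets1 (0.975). Nfil3 encodes a basic leucine zipper transcription factor, Tnfsf4 the OX40 ligand, Il1a and Il1b interleukin 1 cytokines and Ets1 a transcription factor. Nfil3, for example, had group means of 79.71 and 93.58 normalized counts in resting c-Kit KO and Mettl3 KO cells and of 651.4 and 995.6 in stimulated cells. The most opposite genes were Fcgr2b (-0.973), the inhibitory receptor for IgG, Cx3cr1 (-0.967), the fractalkine receptor, and Ms4a2 (-0.962), the beta chain of the IgE receptor. Fcgr2b had means of 755.2 and 772.3 in resting and 104 and 85.03 in stimulated cells. All these points share 6 resting and 6 stimulated libraries that form separate clusters for Crabp2, so the correlations describe that separation and are given without a p-value.

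Dhrs3, which encodes a retinal reductase and was on the fixed list of retinoid carriers and enzymes, was above background in 5 of 12 libraries. Its fitted response averaged over the genotypes was -0.56 on the log2 scale (SE 0.37, adjusted p = 0.265 by edgeR). The value ran from -0.784 to -0.0476 without a replicate or library and from -1.63 to -0.247 under other ways of processing, with no call. Of the retinoic acid responsive genes, Cd38 and Hoxd4 had no library above background and were not tested.

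Tgm2, which encodes transglutaminase 2 and is a known retinoic acid target, was above background in 12 of 12 libraries. Its normalized counts were 49.31, 423.4 and 70.88 in resting and 220.4, 1169 and 854.2 in stimulated c-Kit KO cells. In Mettl3 KO cells they were 85.22, 253.2 and 57.27 at rest and 727, 1437 and 514 after stimulation. Replicate 2 was the highest in all 4 groups, and each of the 6 same-numbered pairs was higher after stimulation. Tgm2 rose by 2.41 on the log2 scale on average over the genotypes (SE 0.63, 5.3-fold, adjusted p = 0.00842 by edgeR). The response was 2.77 in Mettl3 KO cells (adjusted p = 0.0348), and in c-Kit KO cells it was 2.04 and did not pass (adjusted p = 0.124), with overlapping groups and differences of 1.79, 1.42 and 3.27 within replicates. With the replicate number as a block it passed (2.45, adjusted p = 0.00593). Without replicate 3 the average was 2.12 with an adjusted p of 0.0611. Between stimulated genotypes it differed by 0.25 (adjusted p = 0.914).

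Insig1 lies on the plus strand at chr5:28276315-28283668 (GRCm39), its probe starts at base 385 of the mRNA, and it was above background in 12 of 12 libraries. In resting c-Kit KO cells the normalized counts were 231.5, 406.2 and 207.2, and in resting Mettl3 KO cells 164.3, 125.9 and 176.1. All 3 resting Mettl3 KO libraries were below all 3 resting c-Kit KO libraries. The fitted difference was -0.85 on the log2 scale (SE 0.31), which is the contrast Insig1 was chosen by. In that contrast 0 of 545 genes (0%) passed the adjusted threshold in edgeR, 7 had an unadjusted p below 0.05, and DESeq2 and limma also called 0. The within-replicate differences were -0.448, -1.55 and -0.212, with replicate 2 far larger than the others, and the fitted value lay between -1.13 and -0.365 when single replicates or libraries were left out.

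After stimulation the counts were 238.5, 244.1 and 371.4 in c-Kit KO cells and 400, 335.9 and 436.2 in Mettl3 KO cells. In Mettl3 KO cells all stimulated libraries were above all resting ones, and in c-Kit KO cells the groups overlapped. The group means were 281.6 ± 108.5 and 284.7 ± 75.19 in resting and stimulated c-Kit KO cells, and 155.5 ± 26.27 and 390.7 ± 50.8 in resting and stimulated Mettl3 KO cells (SD, n = 3 each). The 4 groups thus ordered as resting Mettl3 KO, resting c-Kit KO, stimulated c-Kit KO and stimulated Mettl3 KO, and of these neighbours only resting Mettl3 KO and resting c-Kit KO did not overlap.

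**Figure D2:**
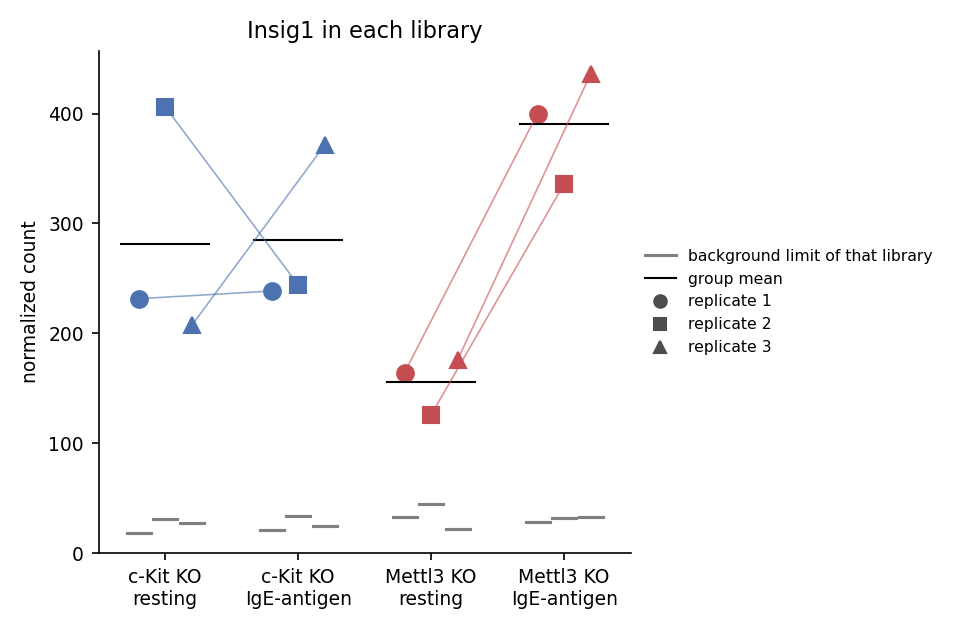
Normalized counts of Insig1 (linear axis from 0) in the 12 libraries, with thin lines joining resting and stimulated libraries of the same number, black lines for group means and grey ticks for background limits. In Mettl3 KO cells all 3 lines go up, from 125.9 to 176.1 at rest to 335.9 to 436.2, whereas in c-Kit KO cells 1 line goes down, from 406.2 to 244.1.

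The response of Insig1 averaged over the genotypes was 0.67 on the log2 scale (SE 0.22), or 1.59-fold. It is computed from the resting libraries by which Insig1 was chosen, so it is a description and no p-value or confidence interval is given. In the same comparison 134 of 545 genes (24.6%) rose and 89 (16.3%) fell by edgeR. The average covers unlike values. The fitted response was 0.02 (SE 0.30) in c-Kit KO cells, with differences of 0.0395, -0.69 and 0.785 within replicates, and 1.33 (SE 0.31) in Mettl3 KO cells, with 1.19, 1.29 and 1.22. Without single replicates or libraries it ran from -0.403 to 0.477 in c-Kit KO cells and from 1.2 to 1.43 in Mettl3 KO cells. These per-genotype responses share the resting libraries by which Insig1 was chosen, so no p-value is given for them or for their difference of 1.31 (SE 0.43). Over the whole panel, the interaction test called 0 of 545 genes (0%) in edgeR, with 23 at an unadjusted p below 0.05, 2 called by DESeq2 and 0 by limma.

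The average response was positive under all 11 other ways of processing that could be run for it, at 0.636 to 0.868, and in all 15 fits that left out a replicate or a library, at 0.468 to 0.886. It was lowest without replicate 3 and highest without replicate 2. Without stimulated Mettl3 KO replicate 3, the library with the other number, it was 0.629, and without replicate 1 it was 0.679.

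**Figure D3:**
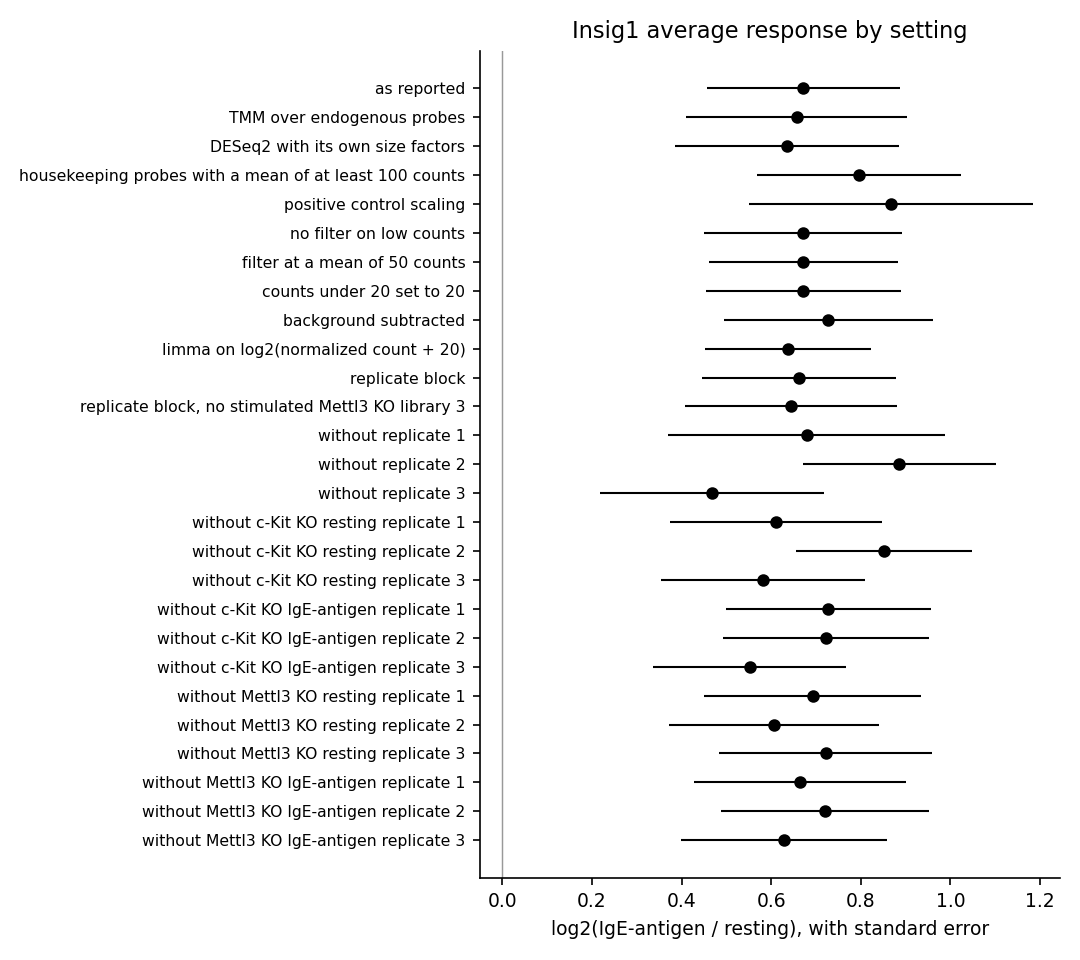
Average response of Insig1 on the log2 scale (points, with standard errors as bars) as reported and under each other setting. All points lie between 0.468, without replicate 3, and 0.886, without replicate 2.

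Between stimulated genotypes, a difference of stimulated libraries whose fitted error also drew on the resting ones, Insig1 was higher in Mettl3 KO cells in each of the 3 same-numbered pairs, by 0.7, 0.43 and 0.221 on the log2(normalized count + 20) scale, but the groups overlapped. The fitted difference was 0.46 (SE 0.30, 95% confidence interval -0.21 to 1.12), or 1.37-fold, and did not pass (adjusted p = 0.539 by edgeR). It was 0.369 without stimulated Mettl3 KO replicate 3 and 0.344 without stimulated c-Kit KO replicate 1. Relative to the median of all 545 genes it was 0.252, and between 0.237 and 0.252 under the 4 scalings in which that median itself ran from -0.0774 to 0.232. The difference itself was 0.269 with TMM scaling over the endogenous probes and 0.16 with scaling on the positive controls.

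The fixed list of 5 SREBP targets held Insig1 and, among others, Fasn, Acly and Elovl6, enzymes of fatty acid synthesis and elongation. Leaving aside Insig1, on average over the genotypes 0 of the other 4 rose and 0 fell by edgeR's test, beside 24.6% and 16.3% of all 545 genes. The median response of all 5 was 0.384 against -0.0203 over all 545 genes. It takes in Insig1, whose value rests on the libraries used to choose it, so no conclusion is drawn from it. Fasn (0.49, adjusted p = 0.114) and Acly (0.38, adjusted p = 0.11) did not pass, although all 3 pairs were higher after stimulation in Mettl3 KO cells for each. In c-Kit KO cells 2 of 3 pairs were higher for each, with overlapping groups. Elovl6, above background in 6 of 12 libraries, was at -0.61 (adjusted p = 0.11). Each of these 3 was called under 1 other way of processing, Fasn and Acly with housekeeping probes of at least 100 counts on average (0.613 and 0.512, adjusted p = 0.0414 and 0.04 by edgeR) and Elovl6 with DESeq2 (-0.629, adjusted p = 0.0454). Among fits without a replicate or a library, Fasn was called without stimulated c-Kit KO replicate 2 (adjusted p = 0.0232 by edgeR) and Elovl6 without resting Mettl3 KO replicate 3 (adjusted p = 0.0426).

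Among the 5 genes with the pattern most like that of Insig1, Pearson's r over the 12 libraries was 0.809 for Malt1, a paracaspase of NF-kB signalling, 0.792 for Cyp1b1, a cytochrome P450 enzyme, 0.768 for Ercc1, a DNA repair endonuclease subunit, and 0.76 for Hif1a, a hypoxia-inducible transcription factor. Cyp1b1 had group means of 242.2 and 150.6 normalized counts in resting c-Kit KO and Mettl3 KO cells and of 312.5 and 336.9 after stimulation, an order of groups like that of Insig1. The lowest values were -0.841 for Vrk2, a kinase, -0.82 for Ccl26, an eotaxin, and -0.777 for Sgpp1, a sphingosine phosphate phosphatase. Crabp2 and Insig1 themselves had an r of 0.657. All of these are descriptions over the same libraries and housekeeping scaling, with no p-value.

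A window of the Insig1 promoter is shown because Insig1 was chosen as the sterol gene and is a known SREBP target, and SREBP proteins can bind E-box and sterol regulatory element motifs. It is taken from RefSeq (GRCm38.p6), lies at chr5:28071299-28071328 on the plus strand and has the E-box CACGTG in capitals, at bases -101 to -96 from the gene's start.
Insig1 promoter: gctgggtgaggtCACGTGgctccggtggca
The search covered both strands of 300 bases, from 250 before to 50 after each start. CACGTG, which reads the same on both strands, was found in 7.15% of 32851 promoters, and TCACNCCAC, a sterol regulatory element written with any base at N, in 1.24%. The promoters of Fasn, Acly and Elovl6 held neither motif, and that of Insig1 held no TCACNCCAC. A match is a description of the letters only.

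The wider lipid genes completed the fixed lists of 26 genes, of which 21 were tested. Leaving aside Crabp2 and Insig1, 19 were tested, and 3 of these, such as Lpl and Nr1h3, did not reach 20 counts in 3 libraries of each condition, so that no call is read from them. Of the other 16, on average over the genotypes, 2 rose, Tgm2 and Olr1, and 2 fell, Lipa and Acot11, by edgeR (24.6% and 16.3% of all 545 genes). Those shares were not limited to genes that reached the count in each condition, so the sets were not filtered alike. The median over the 19, the 3 genes set aside included, was -0.199 against -0.0203 over all genes.

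Olr1, the receptor for oxidized low density lipoprotein, gave 10.96, 20.65 and 17.94 normalized counts in resting and 199.3, 173.5 and 271.8 in stimulated c-Kit KO cells. In Mettl3 KO cells it gave 22.32, 53.16 and 8.677 at rest and 1386, 1291 and 445.3 after stimulation. It rose by 4.46 on the log2 scale (SE 0.45, adjusted p = 1.64e-05 by edgeR), with 5 of 6 resting libraries below the background limit, so that the size depended on the treatment of low counts: it was 3.54 with limma and 7.23 with background subtracted, and called in all 11 other ways of processing. In stimulated cells all 3 Mettl3 KO libraries were above all 3 c-Kit KO libraries. That difference of 2.27 (SE 0.56) did not pass (adjusted p = 0.078 by edgeR). It was called under 3 of 12 other ways of processing, with DESeq2 (2, adjusted p = 0.00313), with counts below 20 set to 20 (2.27, adjusted p = 0.0345) and with the replicate block and without stimulated Mettl3 KO replicate 3 (2.56, adjusted p = 0.0158). It was also called in 4 of 15 fits without a replicate or a library. The lowest adjusted p by edgeR was 0.00955, without stimulated Mettl3 KO replicate 3, the library at 445.3. The other 3 called fits were those without replicate 3 (0.0127), resting Mettl3 KO replicate 2 (0.0457) and resting Mettl3 KO replicate 3 (0.0451). The highest of all 15 was 0.823, without replicate 1, and was not a call.

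Lpl, lipoprotein lipase, was above background in 3 of 12 libraries and in none at rest, and it met the filter through its stimulated libraries, with 20 counts reached in 5 of 6 against 1 of 6 at rest. Its fitted value of 0.98 is therefore given without a test, and it was 0.448 with counts below 20 set to 20 and 2.96 with background subtracted. Lipa, which encodes the lysosomal acid lipase, was above background in 12 of 12 libraries and fell by 1.21 on average over the genotypes (adjusted p = 0.00263 by edgeR), a call lost with scaling on the positive controls (-0.989, adjusted p = 0.0633), with all stimulated libraries below all resting ones in each genotype. In c-Kit KO cells alone the value was -0.98 (adjusted p = 0.0833), or -1 with the replicate block (adjusted p = 0.0128). Acot11, an acyl-CoA thioesterase, fell by 1.15 (adjusted p = 0.00116), with all stimulated libraries below all resting ones in each genotype.

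The genes that follow were not called by edgeR on average over the genotypes. Nr1h3, the oxysterol receptor LXR alpha, was above background in 1 of 12 libraries and Pparg in 0. Apoe, the apolipoprotein, was at -0.41 (SE 0.68), and the lipoprotein receptor relatives Lrp5 and Lrp6 were at -0.19 and -0.02. Of the other acyl-CoA enzymes, Acad10, above background in 3 of 12 libraries, was at -0.63 (adjusted p = 0.0677; in Mettl3 KO cells alone -1.07 with an adjusted p of 0.0409, with overlapping groups) and Coasy at -0.29 (adjusted p = 0.217). Cd36, Fabp4 and Acot3 did not reach the filter. Between stimulated genotypes 0 of the 21 genes passed by edgeR, beside 0.917% of all 545, and of these genes Olr1 was called under some of the other settings, as given above.

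**Figure D4:**
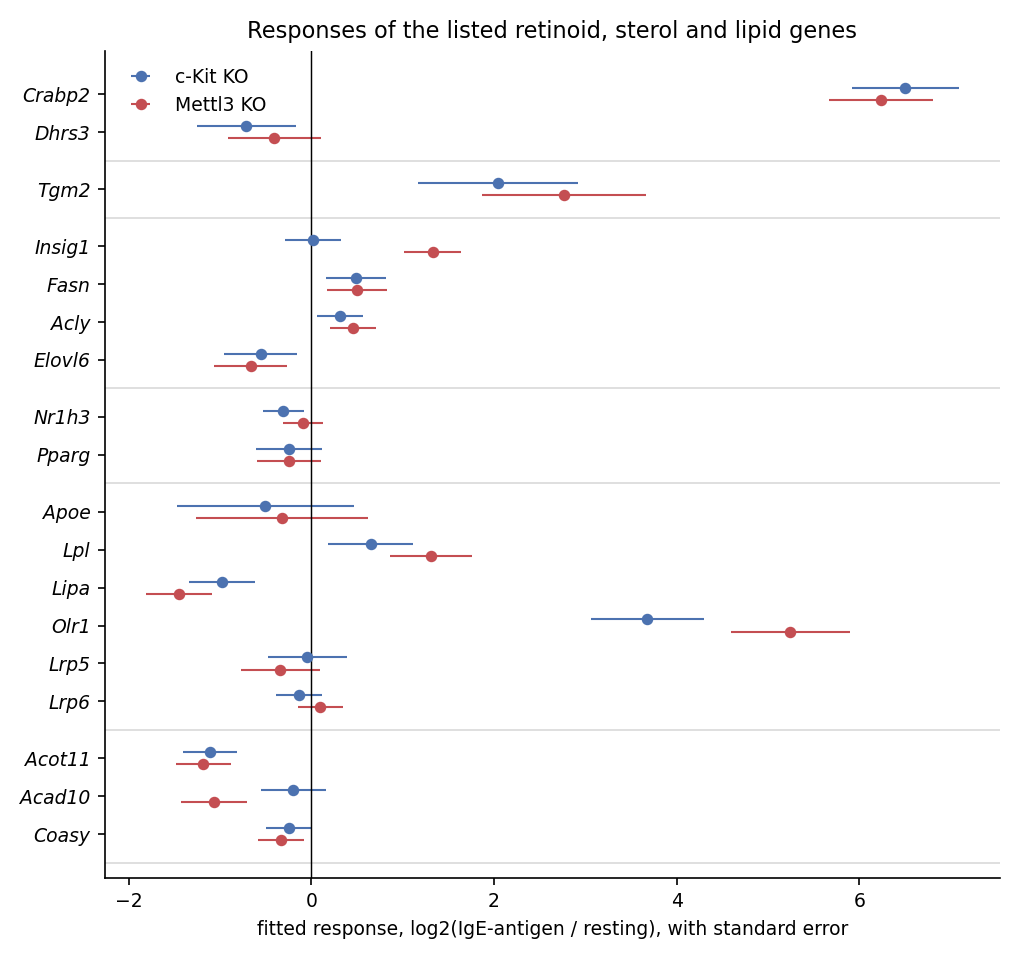
Fitted log2 responses to IgE and antigen in c-Kit KO (blue) and Mettl3 KO cells (red) for 18 of the 21 tested genes of the 6 lists, with standard errors as bars and grey lines between lists. Crabp2 is farthest to the right at 6.51 and 6.24, Olr1 comes next at 3.68 and 5.25, and Insig1 lies near 0 in c-Kit KO cells and to the right of it in Mettl3 KO cells. Resting counts of Crabp2, and most of those of Olr1, were below background, so their sizes depend on the treatment of low counts and their order is not read.

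Other measures moved with stimulation in these libraries. The summed normalized counts of the 11 mast cell markers were 438100, 460600 and 355300 in resting and 244300, 305000 and 183800 in stimulated c-Kit KO cells. They were 368600, 504100 and 399500 in resting and 165900, 258200 and 176600 in stimulated Mettl3 KO cells, lower after stimulation in 6 of 6 pairs. Fcer1a, the alpha chain of the IgE receptor, ranged from 60420 to 126400 at rest and from 20340 to 51730 after stimulation. The 11 markers did not move together: on average over the genotypes 6 fell by edgeR (16.3% of all 545 genes fell), 4 were not called and 1 rose. The one that rose was Hdc, the histamine-forming enzyme, with means of 387 normalized counts at rest and 1805 after stimulation in c-Kit KO cells and of 377 and 1824 in Mettl3 KO cells (2.25 on the log2 scale, adjusted p = 0.00258), and Il1rl1, the IL-33 receptor, was at 0.12 (adjusted p = 0.714). The 4 eosinophil markers summed to 53.8 to 74.14 at rest and 68.89 to 177.1 after stimulation, led by Siglecf at a mean of 42.13 over all libraries. Siglecf had means of 15.8 at rest and 47.91 after stimulation in c-Kit KO cells, and of 18.93 and 85.9 in Mettl3 KO cells. It was above background in no resting and in every stimulated library, while Epx, Prg2 and Ear6 were above background in no library. The part of these shifts in the levels of Crabp2 and Insig1 was not tested.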

How the data were processed

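Total RNA (40 ng per library) was hybridized to the probes of the nCounter Myeloid Innate Immunity Panel. The authors deposited raw counts per probe, not background-corrected or normalized, for 12 libraries; per the study's methods counts were handled in nSolver, with thresholds of p of 0.05 and a fold of 1.5. Digital counts of 768 probes carry no amplification step, and confidence intervals cover the spread between libraries.

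Counts of the 734 endogenous probes were analysed with edgeR 4.0.16 in R 4.3.3, with library sizes set by the geometric mean of the 20 housekeeping probes. Probes with at least 20 counts in at least 3 libraries were kept. A quasi-likelihood model of the 4 groups was fitted to all 12 libraries, and p-values were adjusted by the Benjamini-Hochberg method over the 545 genes. The threshold was an adjusted p of 0.05. Normalized counts are counts divided by the housekeeping factor, and log2 values of single libraries used a pseudocount of 20. Adjusted p-values are from edgeR unless DESeq2 1.42.0 or limma 3.58.1 is named. A test had been planned for the Insig1 average response and the Crabp2 interaction, but both rest on libraries used to choose the genes or on counts at background, so they are described without a p-value. The fit was tested on simulated data. Libraries were grouped by their titles and edited gene and treatment labels. That the 3 replicates came from separate culture sets is stated in the series' design, and their numbers pair the libraries. Deviations from the group mean correlated at 0.16 to 0.612 in all 18 pairs of same-numbered libraries of different groups (mean 0.366). For different numbers the mean was -0.184, which largely follows by construction, because deviations within a group cancel out. It is therefore no further support for the pairing. The members, lists and tests were chosen with earlier results of these data known. Named genes are both members, every gene on the 6 pathway lists, the 5 most and 3 least similar genes to each member, and Kit, Fcer1a, Ms4a2 and the cell type markers; 3 of them are not reported here. The deposited columns with the mean, minimum, maximum and percent coefficient of variation over all libraries were not used. Gene positions are from GENCODE on GRCm39, promoters from RefSeq on GRCm38.p6, and guides from the study's supplementary list.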

Additional observations from a re-analysis of the deposited data

Results flagged for a closer look

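The difference of Insig1 between Mettl3 KO and c-Kit KO cells had opposite directions at rest and after stimulation: it was lower in Mettl3 KO cells in 3 of 3 same-numbered pairs at rest and higher in 3 of 3 pairs after stimulation, a change of 1.31 on the log2 scale (SE 0.43). No p-value is given for this change in Insig1, because the resting libraries were used to choose it. The lower level at rest is what Insig1 was chosen by, so other genes are not set against it here. The difference after stimulation did not pass (adjusted p = 0.539 by edgeR), and the groups overlapped.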

How the results depend on the processing

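The fitted Crabp2 responses moved with the treatment of low counts. With counts under 20 set to 20, with background subtracted and with limma, they were 4.48, 11.9 and 4.23 in c-Kit KO and 4.88, 12.3 and 4.54 in Mettl3 KO cells, and leaving out replicates or libraries gave 5.92 to 7.19 and 5.89 to 6.77. The Crabp2 difference between stimulated genotypes was -0.0393 with positive control scaling and 0.00861 to 0.892 in fits without a replicate or library, with no call. The Crabp2 interaction was 0.391 with counts under 20 set to 20, 0.333 with background subtracted and 0.307 with limma, and -0.629 to 0.296 without a replicate or library. The Insig1 response in Mettl3 KO cells was 1.24 with TMM, 1.19 with DESeq2, 1.48 with housekeeping probes of at least 100 counts on average, 1.38 with positive control scaling, 1.44 with background subtracted and 1.23 with limma, and 1.2 to 1.43 without a replicate or library. The Insig1 average response was 0.468 to 0.886 without a replicate or library. The cause was not tested for any of these.

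On average over the genotypes, calls over all 21 tested genes of the 6 lists numbered 11 with DESeq2 in place of 7. Without a replicate or library there were 4 to 8. These totals take in Crabp2, Insig1 and Lpl, whose responses are given without a test, so no conclusion is drawn from them. Over the whole panel 262 genes were called with DESeq2 in place of 223 of 545, and 152 to 224 without a replicate or library. Genes called between stimulated genotypes numbered 23 with DESeq2, 2 with positive control scaling, 12 with counts under 20 set to 20, 0 with background subtracted, 2 with limma and 0 with only the groups compared, against 5 as reported, and 0 to 33 without a replicate or library. They numbered 45 with the replicate block and without stimulated Mettl3 KO replicate 3. The value of Apoe averaged over genotypes ran from -1.02 to 0.0741 without a replicate or library.

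With the replicate number as a block, the Crabp2 and Insig1 differences between stimulated genotypes were 0.413 and 0.468 (adjusted p = 0.606 and 0.432 by edgeR), the Insig1 average response was 0.662 and the Crabp2 interaction was -0.182. The block changed no call for the tested differences of Crabp2 and Insig1. Of the list genes whose response within a genotype is given, Tgm2 and Lipa gained a call in c-Kit KO cells, and 4 genes in place of 5 passed between stimulated genotypes. A fit of only the groups compared could not be made for averages or interactions, which use all 4 groups. Low signal limits what can be said of resting Crabp2, which was below the background limit in 6 of 6 libraries.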
